A study of Mus musculus with 12 samples.

Results

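Clock output factors are transcription factors that carry the time signal of the molecular clock to other genes, and 8 of them were followed here in mouse liver together with Noct, which encodes Nocturnin. The 9 genes, Dbp, Tef, Hlf, Nfil3, Rora, Ciart, Bhlhe40, Bhlhe41 and Noct, were found by symbol among 41128 genes in the table. They had been selected with their difference between germ-free and conventionalized livers already known, so that difference is described below without a test. The germ-free (GF) mice stayed in sterile isolators, whereas the conventionalized (CV) mice left the isolators at weaning on day 21 and spent 3 weeks on used bedding from other cages of the facility. All 12 mice were C57BL/6, were born germ-free in shared litters and were killed at 6 weeks of age, with 3 mice of each labelled sex in each condition and 1 liver library per mouse. No mouse that had carried microbes from birth is in the comparison, and the labels name neither the microbes acquired nor a check for them. The labels also give no hour of tissue collection, so the values are levels at an unstated time of day.

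The mammalian clock is a loop in which the activators CLOCK and BMAL1 bind DNA at the E-box, and the PER and CRY proteins that they induce repress them. Around this loop sit the PAR bZIP activators DBP, TEF and HLF, which bind the D-box, and their competitor NFIL3, which represses at the same element. RORA activates Bmal1 through the ROR element, and CIART, BHLHE40 and BHLHE41 repress at the E-box. In liver the PAR bZIP factors drive genes of drug, heme and lipid metabolism. Nocturnin is a phosphatase of NADP(H) whose transcript cycles strongly in liver.

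The libraries held 5993619 to 15290835 reads. GF and CV libraries were composed differently, since 7 abundant loci, among them the mitochondrial ribosomal RNA genes, took 41.8 to 69.4% of the reads in GF and 5.39 to 21.9% in CV, which left 1834565 to 5303292 GF reads and 6943462 to 14411498 CV reads for all other genes. The mitochondrial ribosomal RNA share alone was 9.36 to 16.4% in GF and 1.39 to 6.32% in CV, and its part in the differences below was not tested. Adding that share to the model as a covariate left 0 of 11782 genes past the threshold for CV minus GF in limma, with 1985 at an unadjusted p under 0.05, and its log2 left 139 genes. The share did not overlap between the conditions, so such a model cannot tell share and condition apart, and nothing is read from these counts. Library and label also disagreed once. In CV male 3 the value of Xist, the transcript of the inactive X chromosome, was 2382, and 4 Y-linked genes had 0 reads in sum, which allows a share of up to 3.37e-05%. In the other libraries labelled male, Xist was at most 21.3 and the Y-linked genes had at least 796 reads. CV male 3 was kept under its label, and the differences of the 9 genes in males are also given without it.

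The expression unit below is the normalised read count, that is, reads divided by the size factor of the library. Differences are CV minus GF on the log2(normalised read count + 1) scale, with the SE of a limma model of the 4 groups, and the scale understates the differences of genes with few reads. In bulk tissue, fewer cells of a type and less RNA per cell cannot be told apart.

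**Figure D1:**
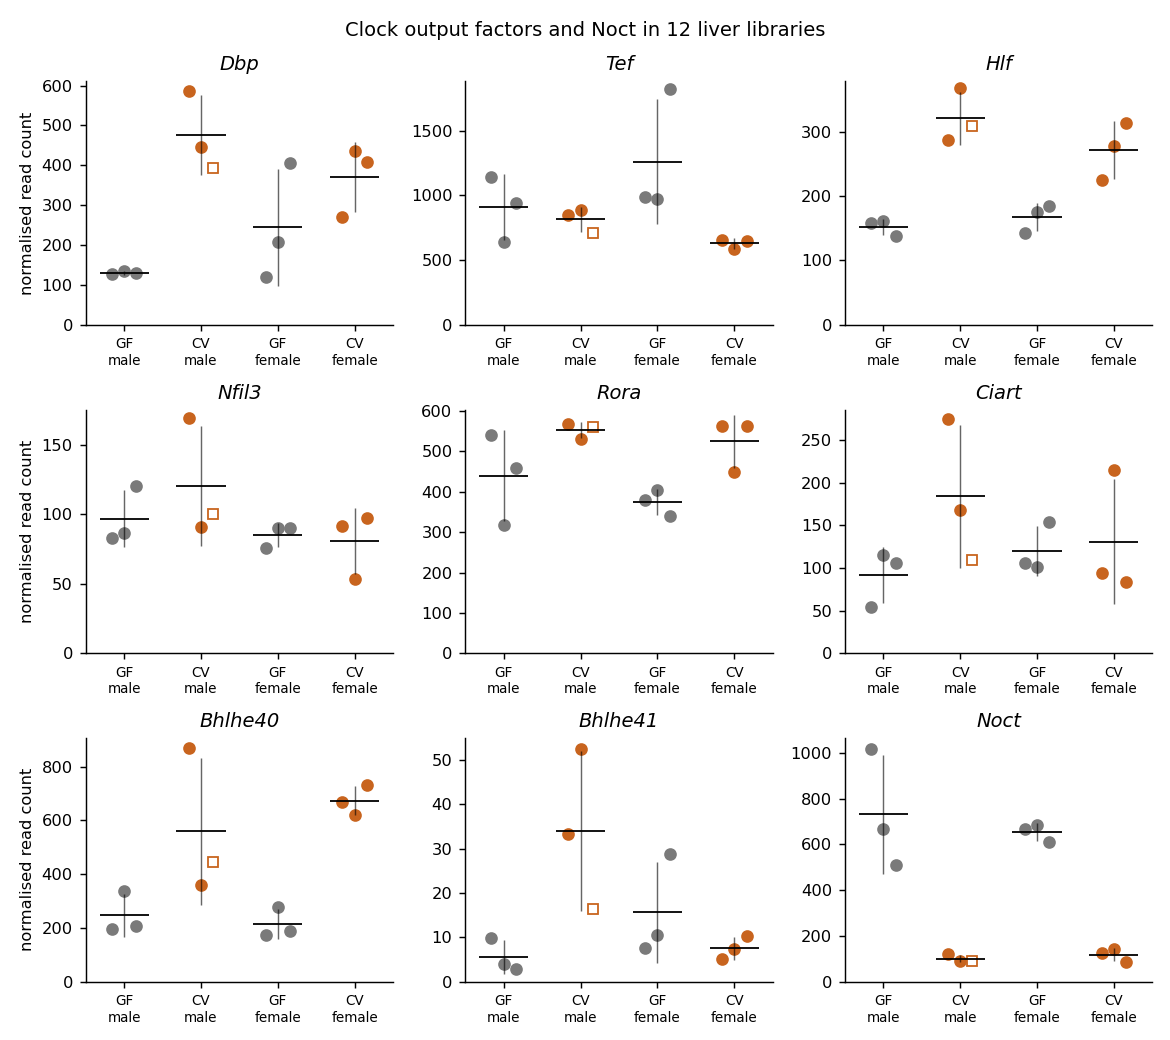
Normalised read count (vertical axis, linear, from 0) of the 9 genes in each of the 12 libraries, by condition and labelled sex. Points are libraries, horizontal bars are group means, vertical lines are ± 1 SD (n = 3), and the open square is CV male 3. All 6 CV libraries lie below all 6 GF libraries for Noct and above them for Hlf and Bhlhe40.

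Among the PAR bZIP activators, Dbp and Hlf were higher in CV liver and Tef was lower. Dbp (chr7:45705088-45710203, plus strand, GRCm38) had normalised read counts of 126, 136 and 129 in the GF males and 587, 446 and 392 in the CV males. The male groups did not overlap, and their means of 130 ± 4.89 and 475 ± 101 (SD, n = 3) differed by 1.84 ± 0.34 (SE), or 1.97 without CV male 3. The GF females spread widely at 121, 207 and 406, against 271, 435 and 408 in the CV females. The GF female with 406 lay inside the CV range, so the female groups overlapped, and their difference was 0.74 ± 0.34. Leaving out that GF female, replicate 3, brought the female difference to 1.20, and leaving out GF female replicate 1 brought it to 0.32. Dbp shares exonic sequence on the opposite strand with Sphk2, a sphingosine kinase gene with 136 to 397 in GF and 231 to 424 in CV, and reads of the pair cannot be told apart unless they were counted by strand.

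Hlf (chr11:90336536-90390895, minus strand) was higher in CV liver in both sexes. Its normalised read counts were 158, 161 and 137 in the GF males and 143, 176 and 184 in the GF females. The CV males had 288, 367 and 309 and the CV females had 225, 277 and 314, so that the conditions did not overlap in either sex. The difference was 1.07 ± 0.22 in males, 1.10 without CV male 3, and 0.69 ± 0.22 in females. The female difference depended on the scaling, at 0.071 when libraries were scaled to the reads outside the 7 abundant loci and 1.495 when they were scaled to all reads, whereas the male difference was 0.77 and 1.38.

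Tef (chr15:81802421-81826863, plus strand) was the most abundant of the 3 in GF liver. The GF males had 1146, 639 and 938 and the CV males 847, 889 and 708, which overlapped, with a difference of -0.12 ± 0.28, or -0.024 without CV male 3. Leaving out GF male 1 turned this difference to 0.066, and leaving out GF male 2 brought it to -0.35. The GF females had 989, 974 and 1823 and the CV females 652, 584 and 651. All CV females lay below all GF females, and the difference of -0.94 ± 0.28 became -0.64 without GF female replicate 3. Averaged over the sexes Tef differed by -0.53 ± 0.20, a direction that turned to 0.030 when the libraries were scaled to all reads.

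Because all 3 PAR bZIP proteins bind the same element, their levels were also compared within each library, where scaling between libraries cancels. Levels were divided by the length of the first annotated transcript of each gene. Dbp made up 18.2 to 31.6% of the summed PAR bZIP level in the 6 GF libraries and 42.5 to 55.3% in the 6 CV libraries. Tef made up 60.5 to 74.4% in GF and 33.3 to 46.1% in CV. Thus Tef was the leading PAR bZIP transcript in every GF library and Dbp in 5 of the 6 CV libraries, with Hlf at 4.65 to 12.7% throughout. The ratio of Dbp to Tef, 0.245 to 0.495 in GF and 0.922 to 1.66 in CV, had no overlap between conditions. Both genes were chosen with their differences known, so this separation is a description only. With the merged length of all annotated exons in place of the first transcript, the Dbp share was 19.9 to 34.4% in GF and 43.7 to 56.5% in CV.

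**Figure D2:**
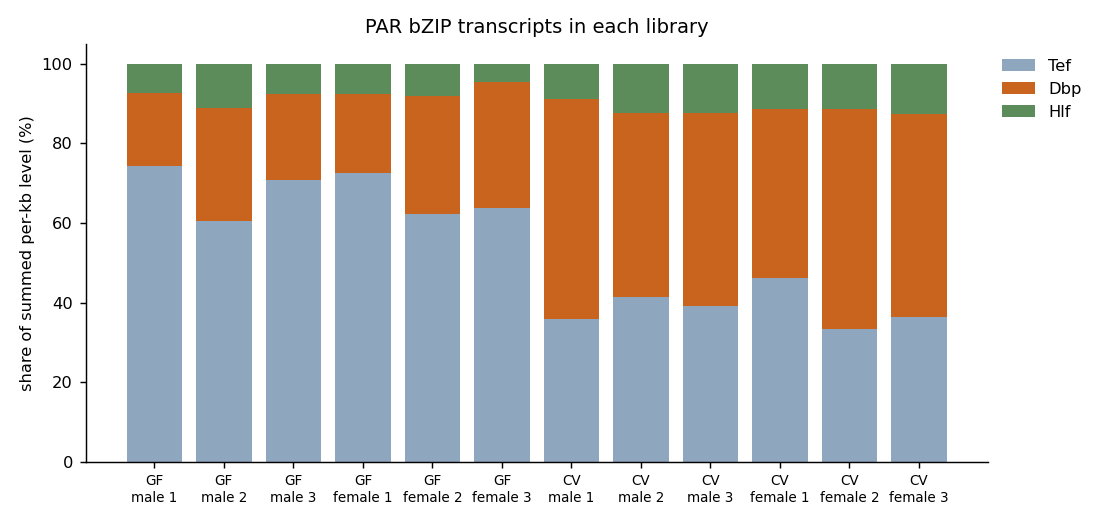
Share of Tef, Dbp and Hlf (stacked, in %) in the summed per-kilobase level of the PAR bZIP transcripts in each of the 12 libraries. The Dbp segment is 18.2 to 31.6% in the GF libraries on the left and 42.5 to 55.3% in the CV libraries on the right.

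Nfil3 (chr13:52967209-52981073, minus strand), the repressor that competes with the PAR bZIP factors, showed no such separation. The GF males had normalised read counts of 83.3, 86.5 and 120, and the CV males 169.7, 90.6 and 99.9. The females were as close, at 75.5, 90.4 and 90.1 in GF and 91.3, 53.7 and 97.5 in CV. The difference was 0.27 ± 0.30 in males, 0.38 without CV male 3, and -0.12 ± 0.30 in females. Leaving out CV male 1 took the male difference to -0.0033, and leaving out CV female 2 turned the female difference to 0.15. The summed PAR bZIP level per kilobase was 5.46 to 15.8 times that of Nfil3 in GF and 6.90 to 16.2 times in CV, ranges that overlapped over most of their length.

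Rora (chr9:68653786-69388246, plus strand), the activator at ROR elements, was moderately higher in CV liver. Its normalised read counts were 542, 318 and 459 in the GF males and 567, 531 and 561 in the CV males, where the highest GF male exceeded the lowest CV male. The GF females had 380, 404 and 339 and the CV females 562, 449 and 564, without overlap. The differences were 0.36 ± 0.23 in males, 0.35 without CV male 3, and 0.48 ± 0.23 in females. The male difference was 0.15 without GF male 2 and 0.53 without GF male 1. Their average of 0.42 ± 0.17 became -0.037 when libraries were scaled to the reads outside the 7 abundant loci, a setting in which the female difference was -0.14.

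The E-box repressors behaved unlike one another. Bhlhe40 (chr6:108660629-108666925, plus strand), also called Dec1, had 197, 337 and 205 in the GF males and 871, 361 and 444 in the CV males. It had 175, 279 and 190 in the GF females and 670, 621 and 730 in the CV females. The conditions did not overlap in either sex, although CV male 2, with 361, lay close to the highest GF male. The difference was 1.12 ± 0.32 in males, 1.23 without CV male 3 and 0.74 without CV male 1, and 1.67 ± 0.32 in females.

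Bhlhe41 (chr6:145858243-145865558, minus strand), the paralog also called Dec2, was expressed at a much lower level, and its differences had opposite signs in males and females. The GF males had 9.85, 3.99 and 2.83, which rest on 11, 3 and 2 reads. The CV males had 33.3, 52.5 and 16.4, which rest on 64, 66 and 18 reads, and all lay above the GF males. The GF females had 7.55, 10.6 and 28.8, from 5, 4 and 15 reads, and the CV females had 5.05, 7.39 and 10.2, from 12, 11 and 17 reads. Here the groups overlapped, with 2 of 3 CV females below all GF females. The difference was 2.42 ± 0.60 in males, 2.85 without CV male 3, and -0.79 ± 0.60 in females, which became -0.27 without GF female replicate 3. The female difference minus the male difference was -3.21 ± 0.85, the widest gap between the sexes among the 9 genes, and no test was made because both differences had served to choose the gene.

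Ciart (chr3:95878503-95882251, minus strand), also called Chrono, varied widely within the CV groups. The GF males had 54.6, 116 and 106 and the CV males 275, 169 and 109. The GF females had 106, 101 and 153 and the CV females 94.6, 215 and 83.1. Both sexes overlapped, and the difference was 0.96 ± 0.40 in males, 1.29 without CV male 3, and 0.02 ± 0.40 in females. It was 0.62 in males without CV male 1, 0.63 without GF male 1, and -0.41 in females without CV female 2.

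Noct (chr3:51224447-51251644, plus strand) had the widest difference of the 9 genes, and in the direction opposite to Dbp, Hlf and Bhlhe40. Its normalised read counts were 1018, 668 and 510 in the GF males and 667, 684 and 611 in the GF females. They were 120, 92.2 and 89.9 in the CV males and 124.5, 142 and 87.3 in the CV females. The lowest GF library, at 510, stood well above the highest CV library, at 142. The GF mean was 7.28-fold the CV mean in males and 5.54-fold in females. The difference was -2.80 ± 0.27 in males, -2.73 without CV male 3, and -2.49 ± 0.27 in females. Among 28 alternative settings the average over the sexes stayed between -3.10 and -1.92. It was -2.61 with the mitochondrial ribosomal RNA share as a covariate, a setting in which 0 of the 9 genes, Noct included, were past the limma threshold.

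Ratios within a library, again per kilobase of the first transcript, also separated the conditions. The genes were chosen with their opposite directions known, so this separation only describes the libraries and is no further result. The ratio of Dbp to Noct was 0.207 to 1.11 in GF and 3.62 to 8.17 in CV. The ratio of Bhlhe40 to Noct was 0.190 to 0.495 in GF and 3.85 to 8.22 in CV. At this length Noct exceeded Bhlhe40 in every GF library, and the reverse held in every CV library. With the merged length of all annotated exons the order turned in GF male 2, at 62.7 for Noct and 71.6 for Bhlhe40. The size of ratios to Noct depends on the length used, since Noct transcripts of 3059 and 9797 bases are annotated and the reads do not say which was present.

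**Figure D3:**
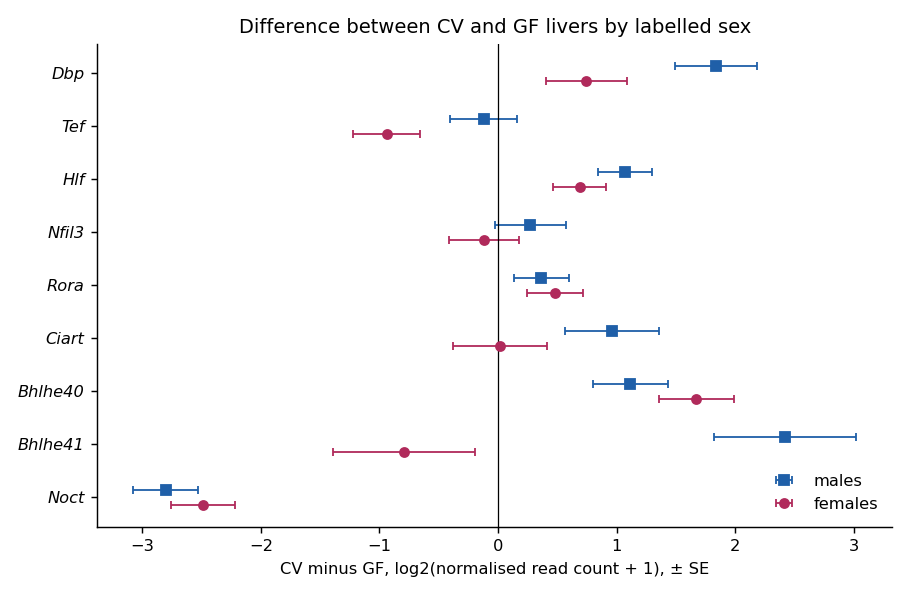
CV minus GF on the log2(normalised read count + 1) scale (horizontal axis) for the 9 genes, in males (squares) and females (circles), with SE bars. Noct lies at -2.80 and -2.49, and Bhlhe41 lies at 2.42 in males and -0.79 in females.

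The order of the 9 genes by level per kilobase differed between the conditions. In GF liver the order of the means was Tef (266 ± 97.5, SD, n = 6), Noct (227 ± 56.1), Dbp (102 ± 60.9), Ciart, Bhlhe40, Nfil3, Rora, Hlf and Bhlhe41. In CV liver it was Dbp (230 ± 55.5), Bhlhe40 (198 ± 60.2), Tef (177 ± 29.5), Ciart, Hlf, Nfil3, Rora, Noct (35.7 ± 7.43) and Bhlhe41. Neighbours in each order overlapped, except that Bhlhe41, at 1.73 ± 1.54 in GF and 3.39 ± 3.02 in CV, lay below all others in both conditions. Noct was in the second place in GF and the eighth in CV, and Hlf in the eighth and the fifth.

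All 9 genes passed the filter of a mean normalised read count of at least 10. Averaged over the sexes, 4 of the 9 (Dbp, Hlf, Rora and Bhlhe40) were past the limma threshold as higher in CV, beside 32.3% of all genes tested, and 2 (Tef and Noct) as lower, beside 28.7%. In males 5 of 9 were past it, beside 29.5% of all genes, and in females 4 of 9, beside 55.8%. The libraries did not overlap for 5 of 9 genes in males, beside 43% of all genes, for 5 of 9 in females, beside 64.9%, and in the same direction in both sexes for 3 of 9 (Hlf, Bhlhe40 and Noct), beside 36.4%. Leaving out 1 library at a time left 4 to 6 of the 9 past the threshold for the average, the 4 being reached when either GF male 3 or CV male 3 was dropped. The genes were chosen on this contrast, so nothing is read from these counts. The median difference was 0.49 over the 9 genes and 0.07 over all genes tested. The direction of calls over all genes moved with the scaling. It was 3807 higher and 3387 lower as reported, 5956 and 1571 after scaling to all reads, and 2142 and 4999 after scaling to the reads outside the 7 abundant loci, with medians over all genes of 0.63 and -0.40 in the latter 2 cases.

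**Figure D4:**
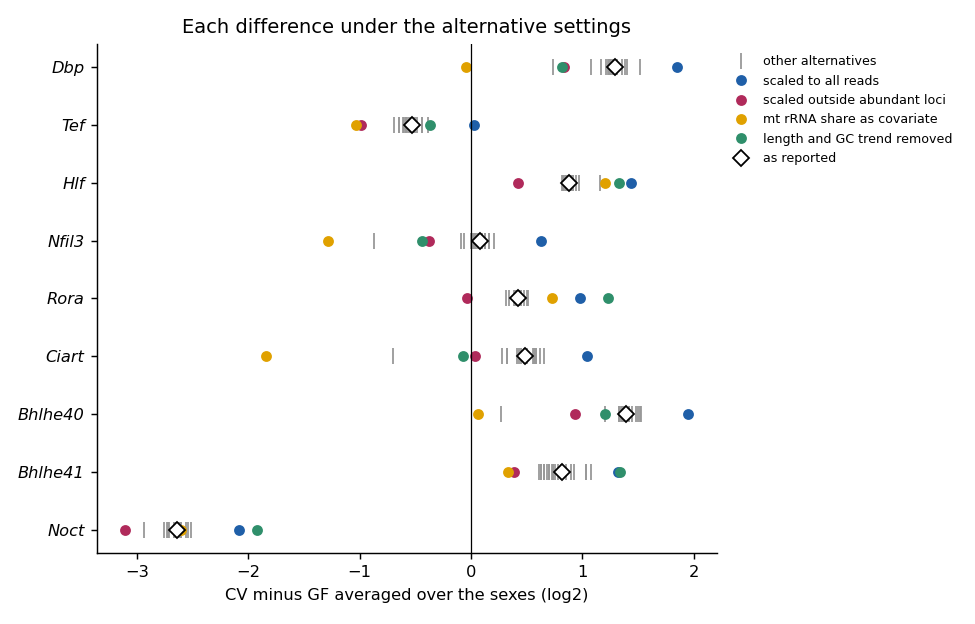
CV minus GF averaged over the sexes (horizontal axis, log2) for the 9 genes as reported (diamonds) and under 28 alternative settings, 4 of them coloured and the others grey ticks. Noct stays between -3.10 and -1.92 and Hlf between 0.42 and 1.44, whereas Dbp reaches -0.044 with the mitochondrial ribosomal RNA share as a covariate.

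The contrast of males and females over both conditions had no part in the choice of the genes and was tested. None of the 9 genes passed the limma threshold, beside 1.16% of all genes tested. At an unadjusted p under 0.05 the count was also 0, and it was 0 in the edgeR quasi-likelihood test and in DESeq2 on the recovered reads. The widest male minus female difference was that of Nfil3, 0.36 ± 0.21, with a 95% interval from -0.09 to 0.81 and an adjusted p of 0.566 in limma. For Hlf the interval ran from -0.28 to 0.39, for Noct from -0.46 to 0.35 and for Dbp from -0.70 to 0.33. The widest interval was that of Bhlhe41, from -0.57 to 1.23. Sex differences inside these bounds remain compatible with these libraries. For Bhlhe41 the contrast averages over opposite directions and cannot show them. Its means were 5.56 in GF males and 15.6 in GF females, but 34.0 in CV males and 7.56 in CV females. Without CV male 3, whose sex markers went against its label, the count stayed at 0 and the differences were 0.41 for Nfil3 and 0.55 for Bhlhe41.

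The promoter sequences show which of these genes carry, near their start, the elements that the clock proteins bind. RefSeq promoter sequences (GRCm38.p6, from 250 bases before to 50 after the start) were found for 8 of the 9 genes, with 9 promoters in all, and were searched on both strands. The E-box CACGTG was present in promoters of 3 genes (Ciart, Tef and Bhlhe41) and in 7.17% of 32544 mouse promoters of this length. Ciart held 3 copies, starting 116, 58 and 44 bases before its RefSeq start. Stretches that lie just upstream of an annotated exon are printed below with E-boxes in capitals. Tef has 2 of these promoters, each with 1 E-box. The printed Tef stretch belongs to the second, which lies inside the annotated gene, because the first left no stretch outside exons. The Noct stretch is shown because that gene had the widest difference and no match to any of the motifs.
Ciart, chr3:95882252-95882411, minus strand: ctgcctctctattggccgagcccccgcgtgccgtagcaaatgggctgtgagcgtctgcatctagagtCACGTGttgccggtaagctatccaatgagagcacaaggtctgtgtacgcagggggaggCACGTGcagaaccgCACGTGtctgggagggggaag
Tef, chr15:81811254-81811413, plus strand: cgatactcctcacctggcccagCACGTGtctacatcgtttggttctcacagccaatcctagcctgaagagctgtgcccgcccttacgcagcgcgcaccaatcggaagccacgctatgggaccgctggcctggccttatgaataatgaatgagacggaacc
Bhlhe41, chr6:145865559-145865670, minus strand: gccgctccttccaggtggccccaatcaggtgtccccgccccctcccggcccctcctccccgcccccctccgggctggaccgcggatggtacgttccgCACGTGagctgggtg
Noct, chr3:51224287-51224446, plus strand: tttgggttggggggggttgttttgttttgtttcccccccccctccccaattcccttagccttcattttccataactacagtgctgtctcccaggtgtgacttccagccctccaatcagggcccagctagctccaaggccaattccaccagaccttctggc

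The ROR element TAGGTCA was found once among the 9 promoters, in that of Nfil3 on the strand opposite to the gene, and in 2.61% of all promoters. The D-box, searched as TTACGTAA and TTATGTAA, was found in none of the 9 promoters and in 1.05% of all promoters. The 3 genes with an E-box did not share a direction, since Tef was lower in CV females, Ciart overlapped in both sexes and Bhlhe41 was higher in CV males. A match describes letters in this window and says nothing of binding.

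The core clock genes were then examined in the same livers, as a list that holds none of the 9 genes. This list and the later ones were chosen with earlier results of these data known, so their counts and p-values only describe these livers. Of 15 genes 13 were tested, and 5 fell and 2 rose in CV at an adjusted p under 0.05 in limma, beside 28.7% of all genes tested that were lower and 32.3% that were higher. The other 6 did not pass, and the median difference was -0.53, beside 0.07 for all genes. Leaving out 1 library at a time gave 4 to 6 genes that fell and 0 to 3 that rose. The genes that rose, Nr1d1 and Cry1, both lost their calls without GF female 1, at 0.58 and 0.53, and without GF male 2, at 0.54 for both. Scaling to the reads outside the abundant loci also ended both calls, at 0.19 for each. So did removing a length and GC trend, at 0.43 and 0.41. Nr1d1 further lost its call without GF female 2 or CV male 1. Cry1 did so without GF male 3, CV male 3, CV female 1 or CV female 3. Per1, a repressor of the loop, had 289 to 561 in GF and 95.4 to 165 in CV, without overlap. It fell by 1.81 ± 0.20 (adjusted p = 2.31e-06 in limma). Per2, its paralog, had 178 to 349 in GF and 47.1 to 116 in CV and fell by 1.47 ± 0.20 (adjusted p = 1.66e-05 in limma). Clock, one of the activators, fell by 0.67 ± 0.18, and Nr1d2, a repressor at ROR elements, fell by 0.53 ± 0.16 (limma adjusted p = 0.00473 and 0.0104). The difference of Nr1d2 was -0.25 ± 0.23 in males and -0.80 ± 0.23 in females. Scaling to all reads brought Clock to -0.11 and Nr1d2 to 0.033, and removing a trend with GC content and transcript length brought Clock to 0.11. Cry2, a partner of the PER proteins, and the kinase gene Csnk1d did not pass, with differences of 0.17 ± 0.19 and 0.26 ± 0.20, but passed as higher after scaling to all reads, with 0.73 ± 0.24 and 0.82 ± 0.22.

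Genes known as targets of the PAR bZIP factors in liver were examined next. All 12 were tested, and 7 rose in CV, 0 fell and 5 did not pass, beside 32.3% of all genes tested that were higher and 28.7% that were lower, with a median difference of 1.11. Acot1, an acyl-CoA thioesterase, rose by 2.49 ± 0.23, from 41.3 to 154 in GF to 224 to 746 in CV (adjusted p = 9.34e-07 in limma). Cyp2b10, a drug-metabolizing cytochrome P450, rose by 2.34 ± 0.30, from 60.0 to 254 in GF to 270 to 1144 in CV (adjusted p = 8.07e-06 in limma). Acot4 rose by 1.31 ± 0.23 and Por, the electron donor of the microsomal P450 enzymes, by 1.15 ± 0.20 (limma adjusted p = 0.000142 and 0.000151). Alas1, the first enzyme of heme synthesis, and Cyp2a4 did not pass, with -0.52 ± 0.31 and 1.47 ± 0.93. Cyp2a4 passed in edgeR, with 3.13, and in DESeq2, with 3.21, as well as without CV male 2, with 2.32. Its CV libraries were split, since 4 lay above and 2 below all GF libraries of their labelled sex, the lowest at 4.77. Its means were 37.6 in GF males and 697 in CV males, and 1124 in GF females and 5185 in CV females. The difference was 0.71 ± 1.31 in males and 2.23 ± 1.31 in females. The CV male mean includes CV male 3, whose sex markers went against its label, and is not given without it. The part of that library in the split was not tested. Alas1 passed as lower without GF male 1, with -0.79, and after scaling to the reads outside the abundant loci, with -0.99. In that scaling Cyp2a5 and Acot2, which had risen, lost their calls, at 0.52 and 0.63. Scaling to all reads instead made Cyp2a4, Cyp7a1 and Ppara pass as higher, at 2.02, 0.73 and 0.86. Several of the genes that rose are also known targets of the nuclear receptors CAR and PPARA, and Acot1 to Acot4 as well as Cyp2a4 and Cyp2a5 have close paralogs whose reads the counting may split.

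Nucleases of the family that Noct belongs to were examined as well. Of 5 genes tested, 1 fell, 0 rose and 4 did not pass, beside 28.7% lower and 32.3% higher among all genes tested, with a median of -0.02. Angel2 fell by 0.50 ± 0.18 (adjusted p = 0.0198 in limma), a call that was lost without GF male 3, at -0.46, without GF female 3, at -0.38, and after scaling to all reads, where the value was 0.052. Its difference was -0.11 ± 0.25 in males and -0.90 ± 0.25 in females. Cnot6 and Cnot6l, deadenylases of the CCR4-NOT complex, differed by -0.04 ± 0.19 and -0.02 ± 0.16. Their values became 0.52 and 0.54 after scaling to all reads.

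Immediate early genes, which respond quickly to handling and to hormones, formed the last list. Of 12 genes 10 were tested, and 3 fell, 1 rose and 6 did not pass, beside 28.7% lower and 32.3% higher among all genes tested, with a median of -0.15. Zfp36, an mRNA decay factor, fell by 0.62 ± 0.16, and Dusp1, a phosphatase of MAP kinases, fell by 0.72 ± 0.19 (limma adjusted p = 0.00369 and 0.0041). The sexes were unlike for Dusp1, with -1.37 ± 0.27 in males and -0.07 ± 0.27 in females. Btg2, an antiproliferative gene, fell by 0.58 ± 0.21, and Junb, an AP-1 subunit, rose by 0.64 ± 0.22 (limma adjusted p = 0.0262 and 0.0185). Junb differed by 1.00 ± 0.31 in males and 0.28 ± 0.31 in females. The calls of Zfp36, Dusp1 and Btg2 were lost after scaling to all reads, at -0.06, -0.16 and -0.02. That of Junb was lost after scaling to the reads outside the abundant loci, at 0.18. Leaving out GF male 1, GF female 2, CV male 3 or CV female 3 also ended the call of Btg2, at -0.44, -0.47, -0.54 and -0.47. Egr1 and Ier2 did not pass, with -0.17 ± 0.37 and 0.22 ± 0.19.

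**Figure D5:**
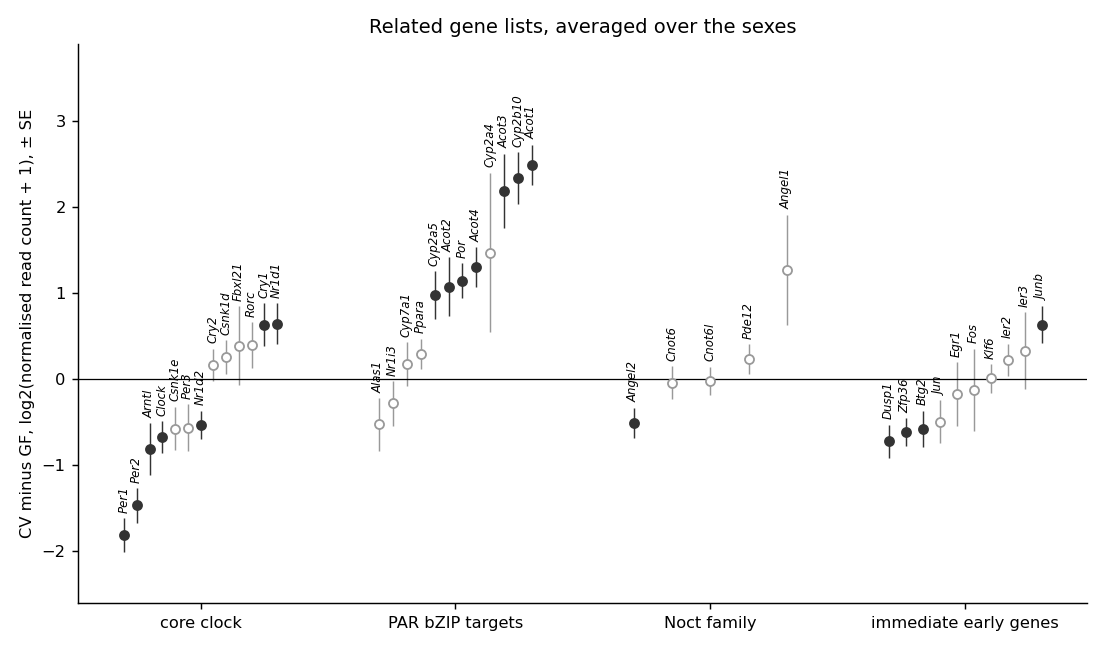
CV minus GF averaged over the sexes on the log2(normalised read count + 1) scale (vertical axis, with SE bars) for the tested genes of 4 lists. Filled points passed an adjusted p of 0.05 in limma, and open points did not. Per1 and Per2 lie lowest among the core clock genes, and 7 of the 12 PAR bZIP targets are filled and above 0.

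The genes whose profile over the 12 libraries was most like that of Noct were ranked by the root mean square difference of standardised log2 values over 11157 genes. Txlna was closest at 0.217, followed by Mpp4 at 0.218 and Srrm4 at 0.219. Txlna had 293 to 344 in GF and 122 to 161 in CV, Mpp4 had 31.2 to 77.9 and 1.20 to 5.05, and Srrm4 had 76.5 to 143 and 15.1 to 31.6. They were chosen for their likeness to Noct over these libraries, so their separation of the conditions is no result, and the libraries of 36.4% of all genes tested also did not overlap in either sex.

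Cell type markers were summed as a check of the labelled tissue. The 6 hepatocyte markers were all present, and their sum was 86868 to 401580 in GF and 327419 to 543745 in CV. The 7 lymphocyte markers, none of which was at 0, summed to 191 to 312 in GF and 50.4 to 79.5 in CV, without overlap. The 5 endothelial markers summed to 1005 to 2540 in GF and 463 to 1333 in CV. Sums for Kupffer cells (8 markers, 974 to 1887 in GF and 1110 to 2445 in CV), stellate cells (4 markers, 1182 to 2327 and 1265 to 2491) and bile duct cells (4 markers, 441 to 1033 and 501 to 1588) overlapped. The 4 neutrophil markers summed to at most 18.7, with Mpo at 0 in GF and Ly6g at 0 in CV. The part of the lymphocyte and hepatocyte sums in the differences of the 9 genes was not tested.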

How the data were processed

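Polyadenylated RNA from snap-frozen liver was sequenced from 12 mice, 3 per condition and labelled sex, with a strand-specific library kit. The submitters' processing notes name HTSeq 0.6.1p1, DESeq2 and GRCm38. The aligner, the annotation and the strand setting of the counting are not given in the sources used here. The deposited values are a normalised signal, that is, gene counts that the authors divided by 1 size factor per library. Divided by the value of 1 read, 100% of the entries came out whole in each library, within 0.01 reads, and the recovered reads were used. The paper supplied with the series describes another experiment and served for style only. Groups and replicate numbers came from sample titles.

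Differences were fitted with limma 3.58.1 (R 4.3.3) on log2(value + 1) for 11782 genes with a mean value of at least 10, with 1 mean per group, a variance trend and Benjamini-Hochberg adjustment over all of them, at 0.05. Replicates are separate mice. Chi-square tests of the recovered reads told all 66 pairs of libraries apart. Annotation was GENCODE release M21 (GRCm38), which held 97.9% of the gene identifiers. Promoters came from RefSeq. Alternatives included edgeR 4.0.16 and DESeq2 1.42.0 on the recovered reads, other scalings, pseudocounts of 0.5 and 5, other filters, thinning, each library left out, a replicate block and the mitochondrial ribosomal RNA share as a covariate. The log2 of that share and the removal of a length and GC trend were added after seeing the data. The model was tested on simulated data. The 9 genes and all lists were chosen with earlier results of these data known. A gene of the core clock list is not reported here and was left out of its counts. Named from each list were up to 4 genes past the threshold with the smallest adjusted p and up to 2 not past it with the highest mean, and for Noct the 3 closest profiles outside predicted genes. Floors on read counts allow 3 reads and cover counting error only.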

Additional observations from a re-analysis of the deposited data

Results flagged for a closer look

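Of 18 measures (9 genes in 6 GF and 6 CV libraries), 5 held a library whose gap to the nearest other exceeded 0.625 of the whole range, a gap that chance gives in about 1 of 20. Dbp was 406 in GF female 3, with the other GF libraries between 121 and 207, and Bhlhe41 in the same library was 28.8, with the others between 2.83 and 10.6. Noct was 1018 in GF male 1, with the others between 510 and 684. Nfil3 was 120 in GF male 3, with the others between 75.5 and 90.4. Rora was 449 in CV female 2, with the others between 531 and 567.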

How the results depend on the processing

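With the mitochondrial ribosomal RNA share as a covariate, which differs between the conditions without overlap, the number of genes past the limma threshold was 0 for the average of both sexes, 3 for males and 0 for females, and with its log2 to 139, 372 and 3. At an unadjusted p under 0.05 the counts with the share were 1985, 2289 and 1615. The male against female contrast had 137 genes as reported, 256 in DESeq2 and 216 with the log2 share. Leaving out each library in turn gave 6640 to 7429 genes for the average, 1595 to 3877 for males, 5550 to 7002 for females and 88 to 205 for the sexes. The lowest counts for males, 1595, 2125 and 2190, came from leaving out GF male 1, GF male 3 or CV male 1, and for the sexes it was 88 without GF male 3 and 90 without CV female 1, against 3474 and 137 with all libraries.

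The direction turned with the covariate for Dbp over the sexes (-0.044) and in females (-1.13), Ciart over the sexes (-1.84), in females (-3.25) and in males (-0.44), Nfil3 over the sexes (-1.29) and in males (-0.55), Bhlhe40 in females (-0.19), Clock (0.69), Nr1d1 (-1.50), Cyp2a5 (-0.062), Cyp2b10 (-0.076) and Dusp1 (0.30), and with its log2 for Dbp in females (-0.012), Ciart over the sexes (-0.70) and in females (-1.61), Nfil3 over the sexes (-0.87) and in males (-0.32), Clock (0.056) and Nr1d1 (-0.56). It turned after scaling to all reads for Tef over the sexes (0.030) and in males (0.19), Nfil3 in females (0.68), Nr1d2 (0.033), Angel2 (0.052), Cnot6 (0.52) and Cnot6l (0.54). It turned after scaling to the reads outside the abundant loci for Rora over the sexes (-0.037) and in females (-0.14), Nfil3 over the sexes (-0.38) and in males (-0.026) and Ciart in females (-0.60), and after removing the length and GC trend for Nfil3 over the sexes (-0.44) and in males (-0.10), Ciart over the sexes (-0.077) and in females (-0.70), Tef in males (0.018), Clock (0.11), Cnot6 (0.53) and Cnot6l (0.82). The values nearest 0, Nfil3 over the sexes and Ciart in females, also turned after thinning (-0.093 and -0.0013) and when single libraries were left out, with ranges of -0.061 to 0.21 and -0.41 to 0.27, and Nfil3 in females was 0.0019 with TMM scaling. The covariate also widened the SEs, from 0.24 to 0.83 for Dbp over the sexes and from 0.18 to 0.54 for Clock. The cause was not tested. Noct, Hlf and Bhlhe41 kept their direction in all 28 alternatives, over the sexes and in each sex. Hlf in females was only 0.071 when scaled outside the abundant loci, and Bhlhe41 in females was only -0.066 when scaled to all reads. Bhlhe40 kept its direction over the sexes and in males, Dbp and Rora kept theirs in males, and Tef did so in females.

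The replicate numbers were not taken as pairs, because not every same-numbered pair had deviations that correlated above 0.1. The correlations were -0.23 to 0.02 between GF and CV and 0.059 to 0.40 between GF males and females, with 1 of 3 pairs above 0.1. Between CV males and females all 3 pairs were above 0.1, at 0.12 to 0.19, and each exceeded the correlations with other numbers, a hint from the data that the labels do not explain. With the replicate block the counts were 7228 for the average, 3466 for males, 6630 for females and 144 for the sexes. Depth limits Bhlhe41 most, with 2 to 15 reads in GF libraries.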
